A study of Mus musculus with 2 samples.

Results

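The suppressor of cytokine signalling (SOCS) family consists of Cish and Socs1 to Socs7. All 8 genes were chosen as a named family, with earlier results of these data known, and were taken from probe sets that the platform annotation pairs with a single gene symbol. They were represented by 20 of the 45141 probe sets on the array, and made up 8 of the 17097 genes with a value. The RNA came from CD4 T cells activated with antigen-presenting cells (APC) of 2 kinds, with 1 array for each. The first array held T cells cultured with APC from mice that carry an OX40L transgene (OX40L-Tg), and the second held T cells cultured with wild type (Wt) APC. OX40L is the ligand of the costimulatory receptor OX40 on activated T cells, and the comparison asks how an excess of it alters the T cell transcripts. In both conditions naive Foxp3-negative, CD62L-high and CD44-low CD4 T cells were sorted from 6-week-old C57/Bl6 Foxp3-eGFP reporter mice. They were stimulated for 48 hours with soluble anti-CD3 antibody, and living CD4 T cells were sorted again from the cultures. The APC were splenocytes depleted of CD3-positive cells and had been given mitomycin C, an agent that blocks cell division, at 50 ug/ml. The promoter that drives the transgene and the number of mice behind each culture are not given in the sources used here.

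SOCS proteins are feedback inhibitors. A cytokine that binds its receptor activates Janus kinases (JAK), which phosphorylate STAT transcription factors, and STAT factors in turn switch on some SOCS genes. Each SOCS protein has an SH2 domain that binds phosphorylated tyrosine and a SOCS box that recruits an elongin and cullin ubiquitin ligase. Socs1 and Socs3 also carry a stretch that inhibits the kinase itself. In T cells Cish and Socs2 are known as targets of STAT5 below the IL-2 receptor, Socs1 as a brake on interferon-gamma and IL-2 family signals, and Socs3 as a brake on signals through gp130. Socs4 to Socs7 are less tied to STAT induction, and some of them act on growth factor receptors.

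RefSeq start windows of GRCm38.p6, which reach 250 bases before and 50 bases after the annotated start, were found for 4 of the 8 genes, Cish, Socs1, Socs3 and Socs4. The stretches below hold the STAT-type and interferon-response-type motifs of these cytokine-inducible genes. Capitals mark TTCNNNGAA, the spacing bound by most STAT dimers, in Cish and Socs3. In Socs1 they mark an interferon-response-like motif, in which GAAA is repeated after a gap of 2 bases, the form bound by interferon regulatory factors. Every sequence is 100 bases long and runs 5′ to 3′ on the strand of the gene.
Cish, chr9:107296583-107296682, plus strand: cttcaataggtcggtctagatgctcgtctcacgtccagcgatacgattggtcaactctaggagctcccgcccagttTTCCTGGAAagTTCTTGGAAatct
Socs3, chr11:117969467-117969566, minus strand: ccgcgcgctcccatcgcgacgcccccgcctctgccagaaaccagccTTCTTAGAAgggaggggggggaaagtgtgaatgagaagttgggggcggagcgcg
Socs1, chr16:10785567-10785666, minus strand: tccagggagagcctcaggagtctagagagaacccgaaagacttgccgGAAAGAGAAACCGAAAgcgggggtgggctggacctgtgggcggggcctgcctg

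Cish held TTCNNNGAA at 2 places close together, at bases 1 to 9 and 12 to 20 of the annotated transcript. Socs3 held it once, from base -154 to base -146 before the transcript start that the RefSeq window uses. The Socs1 window had no match to TTCNNNGAA, and its matches to the interferon-response-like motif overlapped, at bases -83 to -74 and -77 to -68. The Socs4 window had no match to any of the motifs searched, and the wider spacing favoured by STAT6, TTC and GAA with 4 bases between, matched in 0 of the 4 windows. Motifs were searched on both strands. Of all 32851 start windows, 8.30% held TTCNNNGAA, 0.457% held it at least 2 times, 6.95% held the STAT6 spacing and 3.44% held the interferon-response-like motif. These matches describe letters in the windows and do not show that a factor binds there.

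**Figure D1:**
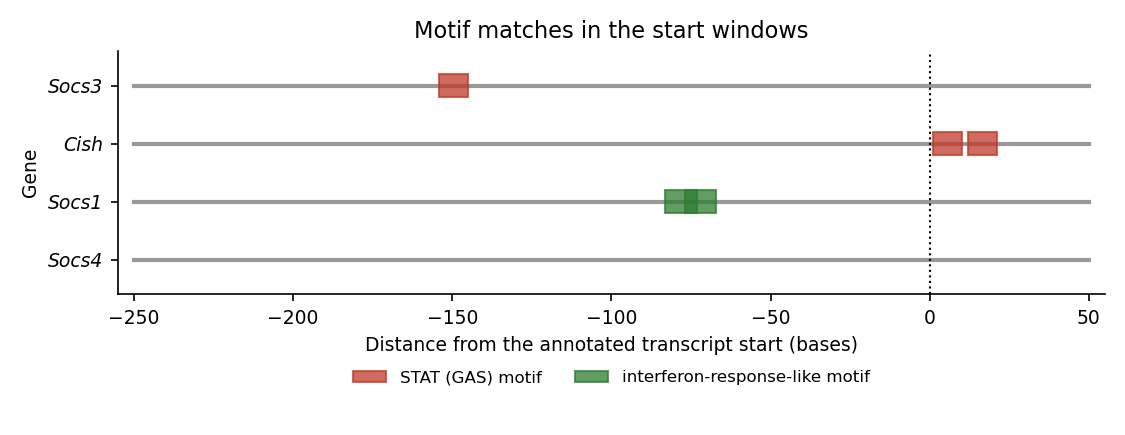
Motif positions in the 4 start windows, drawn by distance in bases from the annotated transcript start. Red boxes are TTCNNNGAA, seen once in Socs3 and 2 times in Cish just after the start, green boxes are the overlapping interferon-response-like matches of Socs1, and Socs4 has none.

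Socs2 and Socs3 stood apart from the other family members. Both read nearly 2-fold higher in T cells activated with OX40L-Tg APC, Cish read 1.30-fold higher, and the remaining 5 genes were within 1.2-fold in either direction. At a threshold of 1.5-fold, 2 of the 8 genes were higher with OX40L-Tg APC and 0 were lower. Over the 10541 genes that reached the floor, the shares past 1.5-fold were 3.85% upward and 3.36% downward. The floor was the median of all probe sets on an array, 14.7 units, and had to be reached on at least 1 array, which all 8 genes did on both. None of the 8 reached 2-fold, a size that 1.56% of genes passed upward and 1.17% downward. The median difference of the family was 0.12 on the log2 scale, against 0.02 for all genes above the floor. There was 1 array per condition, so none of these differences has a replicate check or a test.

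The authors deposited linear intensities from RMA, a method that corrects background, equalises arrays and merges the probes of each set into 1 value. A probe set's intensity depends on its probes, so levels are compared between arrays and not between genes. Each gene took the probe set with the highest mean level. A difference is the log2 intensity of the OX40L-Tg APC array minus that of the Wt APC array. Genes restricted to other organs gave the background level, which was the 95th percentile of 51 such genes, 40.7 units on the OX40L-Tg APC array and 34.4 units on the Wt APC array. Among genes with at least 2 probe sets above background on both arrays, the differences of the probe sets of a gene scattered with a pooled SD of 0.13 (2919 genes). This scatter covers probes alone and says nothing of the spread between cultures or mice.

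Cish encodes CIS, which binds cytokine receptors and signalling proteins below the T cell receptor. It read 2247 units with OX40L-Tg APC and 1730 units with Wt APC, a difference of 0.38. It was therefore higher on the OX40L-Tg APC array by less than 1.5-fold. Of the genes above the floor, 8.41% had a difference at least as high. The gene has 1 probe set, so no other probe set bears on this value.

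Socs2, known as the brake on growth hormone signalling, has 4 probe sets. The one with the highest mean read 1029 units with OX40L-Tg APC and 525 units with Wt APC, a difference of 0.97 or 1.96-fold. A further set, marked by its name as shared between transcripts, read 852 units with OX40L-Tg APC and 451 units with Wt APC, a difference of 0.92. Both sets above background thus read higher with OX40L-Tg APC by nearly the same amount. The other two sets were below background on both arrays, at 15.1 and 7.51 units with OX40L-Tg APC and at 8.78 and 6.89 units with Wt APC. Of all genes above the floor, 1.67% had a difference at least as high as that of Socs2.

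Socs3, which binds gp130 and limits IL-6 type signals, has 1 probe set. Its intensity was 269 units with OX40L-Tg APC and 140 units with Wt APC, a difference of 0.94 or 1.92-fold. Both values were well above background. Among genes above the floor, 1.77% had a difference at least as high. In order of difference, Socs2 and Socs3 were 0.03 apart, less than the scatter between probe sets of a gene, and the step down to Cish was 0.56.

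Socs1, which inhibits JAK kinases directly and is induced by interferon-gamma in many cells, read 429 units with OX40L-Tg APC and 394 units with Wt APC. Its difference was 0.12, from 1 probe set, and 29.4% of genes had a difference at least as high. Socs1 thus read nearly the same on both arrays, and lay 0.25 below Cish in the order of differences.

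The members that are less tied to STAT induction differed little. Socs4, linked to epidermal growth factor receptor signalling, read 300.1 units with OX40L-Tg APC and 276 units with Wt APC in its highest set, a difference of 0.12. Its other 3 sets differed by 0.05, -0.23 and -0.21, so the sign was not shared. Of these 3, the first read 90.6 units with OX40L-Tg APC and 87.7 units with Wt APC, above background on both arrays. The next read 32.6 units with OX40L-Tg APC, below background, and 38.3 units with Wt APC, and the last was below background on both arrays.

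Socs5, reported to restrain IL-4 receptor signalling in T cells, was the family member with the lowest difference. Its highest set read 112 units with OX40L-Tg APC and 132 units with Wt APC, a difference of -0.24. The other set read 81.4 units with OX40L-Tg APC and 102 units with Wt APC, a difference of -0.33. Both sets were above background and lower with OX40L-Tg APC, by less than 1.5-fold. A difference at least as low was found in 13.8% of genes.

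Socs6, which binds the receptor tyrosine kinase KIT, read 151 units with OX40L-Tg APC and 144 units with Wt APC in its highest set, a difference of 0.07. A further set above background read 46.1 units with OX40L-Tg APC and 50.7 units with Wt APC, a difference of -0.14, and the remaining set, below background, differed by -0.13. Socs7, an adaptor that binds NCK and other signalling proteins, read 252 units with OX40L-Tg APC and 267 units with Wt APC, a difference of -0.09. Its next set read 238 units with OX40L-Tg APC and 225 units with Wt APC, a difference of 0.08. The remaining Socs7 sets, below background on both arrays, differed by 0.09 and 0.04. Neither gene had a direction that its own probe sets shared.

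**Figure D2:**
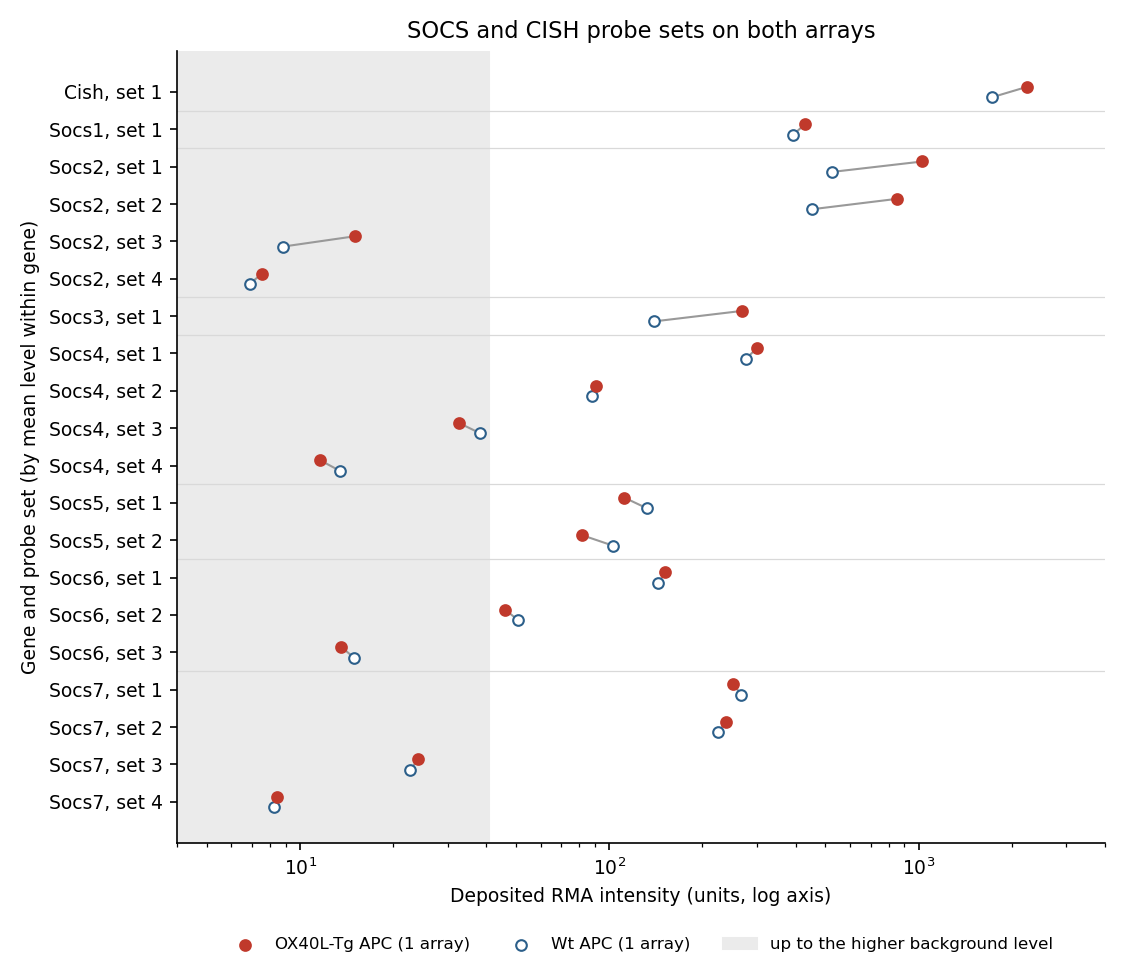
Deposited intensity of all 20 SOCS and CISH probe sets, on a log axis in units. Filled points are the OX40L-Tg APC array, open points the Wt APC array, and the grey band reaches up to the higher background level. The upper sets of Socs2 and the set of Socs3 show the widest gaps outside the band.

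**Figure D3:**
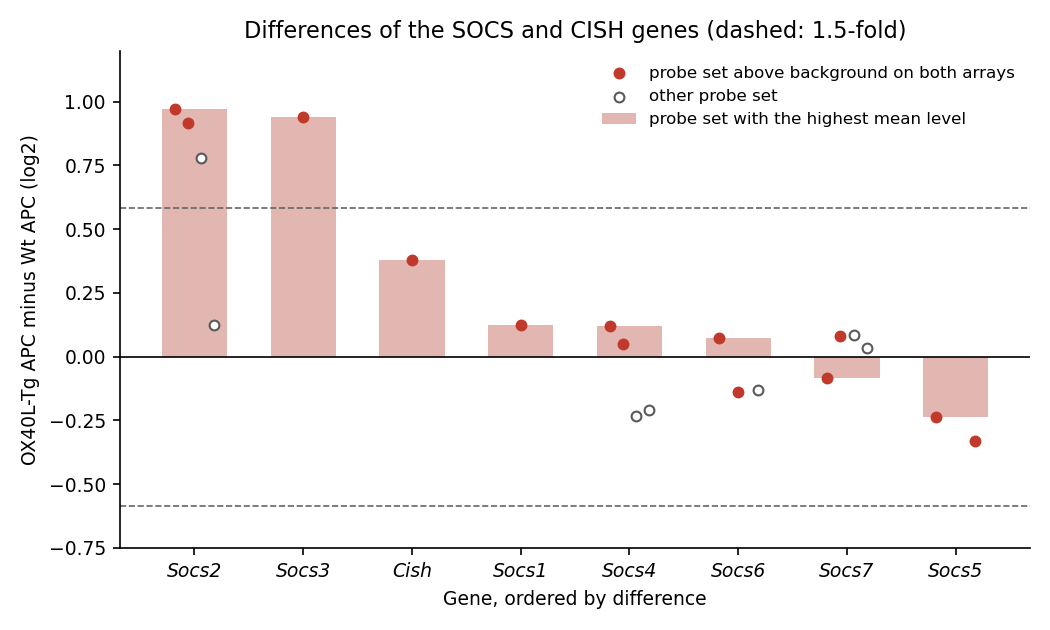
Log2 difference, OX40L-Tg APC minus Wt APC, of each gene (bars) and of every probe set (points, open where below background on an array). Dashed lines mark 1.5-fold, which the bars of Socs2 and Socs3 pass and those of the other 6 genes do not.

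Counted by probe set, 13 of the 20 were higher with OX40L-Tg APC and 7 were lower. Of the 13 sets above background on both arrays, 9 were higher, 3 of them by at least 1.5-fold, and 4 were lower, 0 of them by that much. Those 3 sets belonged to Socs2 and Socs3. Of all genes above background on both arrays, 55.9% were higher at any size and 44.1% lower, and 3.49% passed 1.5-fold upward and 2.63% downward. These shares take 1 probe set per gene, so their unit differs from that of the probe set counts. Of the 4 genes of the cytokine-inducible group, Cish and Socs1 to Socs3, 4 were higher, with a median difference of 0.66, where 54.0% of all genes above the floor were higher and 46.0% lower. Among Socs4 to Socs7, 2 were higher and 2 were lower, with a median of -0.01. This grouping follows known biology and was made with earlier results of these data known.

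Markers of other cells were read on the same arrays. B cell markers had a median difference of 0.35, with a summed level of 1469 units with OX40L-Tg APC and 957 units with Wt APC, and 5 of 6 above the floor were higher. Of these, 2 passed 1.5-fold, Fcer2a with a difference of 1.00 and Cd79b with 0.92. MHC class II genes, which APC express, were higher in 6 of 6, with a median of 0.46 and sums of 3722 units with OX40L-Tg APC and 2754 units with Wt APC. Only H2-DMb2 among them passed 1.5-fold, with a difference of 0.86. T cell markers were lower in 8 of 9, with a median of -0.30 and sums of 19630.5 units with OX40L-Tg APC and 23154 units with Wt APC. Past 1.5-fold downward were 2 of them, Cd3e at -0.67 and Cd3g at -0.62. Over all genes above the floor, 3.85% passed 1.5-fold upward and 3.36% downward. Cd4 itself read 1143 units with OX40L-Tg APC and 1409.9 units with Wt APC. All 5 macrophage and monocyte markers, all 3 neutrophil markers and all 3 adipocyte markers measured were below background on both arrays. Of 5 dendritic cell markers and 3 NK cell markers measured, 4 and 3 were below background on both arrays, and so was Foxp3. Both CD8 T cell markers were higher, with a median of 0.25. Of these, Cd8b1 read 239 units with OX40L-Tg APC and 191 units with Wt APC, above background in cells sorted as CD4, and Cd8a was below background on both arrays. Of 3 erythroid markers measured, 2 were below background on both arrays, Alas2 and Slc4a1. The other, Hba-a1, read 207 units with OX40L-Tg APC and 1161 units with Wt APC. All 3 probe sets of Hba-a1 were lower with OX40L-Tg APC, with differences from -2.49 to -0.997. The adipocyte genes were checked because the labels describe the RNA extraction as one from adipose tissue. SOCS genes are active in B cells and other leukocytes as well as in T cells, and the part of these markers in the SOCS differences was not tested. In such bulk samples a change in the number of cells of a type and a change in RNA per cell cannot be told apart.

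Cytokines that signal through JAK and STAT factors lie upstream of the family. At 1.5-fold, 14 of the 16 above the floor were higher with OX40L-Tg APC and 1 was lower, and their median difference was 2.13. Of all genes above the floor, 3.85% passed 1.5-fold upward and 3.36% downward. Il4, which acts through STAT6, read 2711 units with OX40L-Tg APC and 262 units with Wt APC. Il2, the growth factor that acts through STAT5, read 205 units with OX40L-Tg APC and 90.9 units with Wt APC, 2.25-fold higher. Il9, which shares the gamma chain with IL-2, read 437 units with OX40L-Tg APC and 34.4 units with Wt APC. The Wt APC reading of Il9 was level with the background of that array. Il21, which acts mainly through STAT3, read 1413 units with OX40L-Tg APC and was at least 41.1-fold higher than the background level of the Wt APC array, where it read 25.6 units. Il24, of the IL-10 family, was at least 38.0-fold higher in the same sense. The 2 probe sets of Il21 differed by 5.79 and 3.39, and its bound comes from the set with the larger difference. The exception was Ifng, the defining type 1 cytokine, at 198 units with OX40L-Tg APC and 351 units with Wt APC.

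Receptor chains showed no common direction. At 1.5-fold, 2 of 18 above the floor were higher and 3 were lower, with a median of -0.08. The shares of all genes above the floor were 3.85% upward and 3.36% downward. Il2ra, the chain that gives the IL-2 receptor high affinity, read 3512 units with OX40L-Tg APC and 1896 units with Wt APC, a difference of 0.89. Il6st encodes gp130, the chain that Socs3 binds. It read 67.7 units with OX40L-Tg APC and 125 units with Wt APC, a difference of -0.89, so it lay in the opposite direction to Socs3. Its 3 probe sets ranged from -1.02 to -0.32. Ifnar1 and Ifngr1, chains of the type I interferon and interferon-gamma receptors, differed by -0.82 and -0.62.

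Among 10 JAK and STAT genes, 1 was at least 1.5-fold higher and 0 were lower by that size, with a median of 0.03. The shares of all genes above the floor were 3.85% upward and 3.36% downward. Jak2 read 1335 units with OX40L-Tg APC and 603 units with Wt APC, and its probe sets differed by 1.15 and 1.34. Stat5a read 1173 units with OX40L-Tg APC and 797 units with Wt APC, a difference of 0.56 just below 1.5-fold. The other of its 2 probe sets differed by 0.61, just past 1.5-fold. Stat5b, its close relative, differed by 0.06. Stat4, which acts below the IL-12 receptor, differed by -0.58, and Jak1 by -0.40, with Jak1 probe sets ranging from -0.40 to 0.03.

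Genes linked to STAT5, STAT6 or STAT3 were read as well. These lists share genes with each other and with the lists above, so their counts are not separate. Of all genes above the floor, 3.85% passed 1.5-fold upward and 3.36% downward. STAT5-linked genes had 3 of 16 at least 1.5-fold higher and 1 lower by that size, with a median of 0.20. The 3 were Il9 and Il2ra, already given, and Lif, with a difference of 0.70. Lif, a cytokine of the IL-6 type, also stands on the cytokine list, and its 3 probe sets ranged from 0.10 to 0.70. The lower gene, Bcl6, was below background on both arrays. STAT6-linked genes had 7 of 9 at least 1.5-fold higher and 0 lower by that size, with a median of 1.22. Il13, a type 2 cytokine, and Ccr4, a chemokine receptor of type 2 cells, differed by 3.11 and 1.57. Il4, Il13 and Il24 stand on both this list and that of the cytokines.

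STAT3-linked genes diverged, with 4 of 9 past 1.5-fold upward and 3 downward, and a median of 0.40. The shares of all genes above the floor were 3.85% upward and 3.36% downward. Il21 and Il24, also on the cytokine list, were among the 4 higher STAT3-linked genes. Batf, an AP-1 factor, read 1664 units with OX40L-Tg APC and 519 units with Wt APC, a difference of 1.68. Of the 3 lower genes, Il17a and Bcl6, which is also on the STAT5-linked list, were below background on both arrays, and the third was the receptor chain Il6st. These lists were drawn up with earlier results of these data known, so their directions are not independent evidence.

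**Figure D4:**
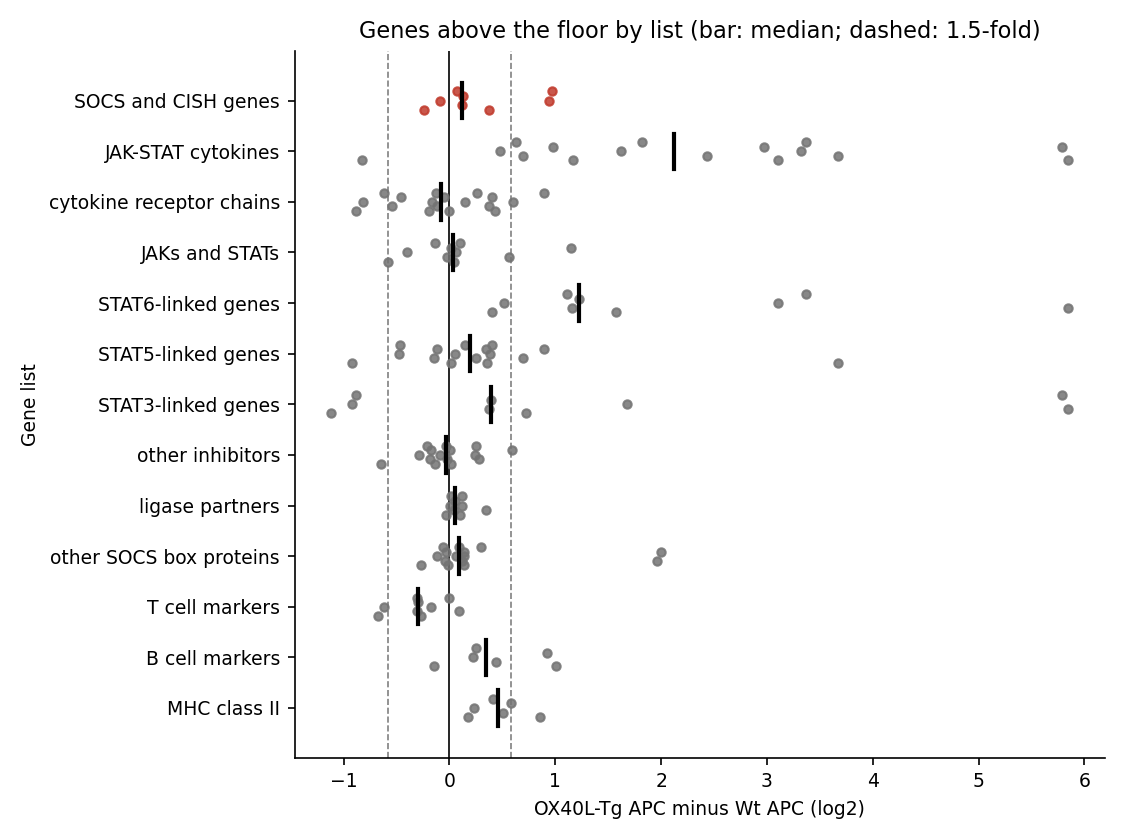
Log2 differences, OX40L-Tg APC minus Wt APC, of genes above the floor, by list (1 point per gene, bar at the median, dashed lines at 1.5-fold). The median of the SOCS and CISH genes is 0.12, that of the cytokines 2.13 and that of the STAT6-linked genes 1.22.

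Inhibitors of the pathway outside the family mostly stayed close. Past 1.5-fold, 1 of 15 above the floor was higher and 1 lower, with a median of -0.03. The shares of all genes above the floor were 3.85% upward and 3.36% downward. Usp18, which limits type I interferon receptor signalling, differed by 0.59, and Cblb, a ubiquitin ligase that restrains T cell activation, by -0.65. Ptpn2, a phosphatase of JAK and STAT proteins, differed by 0.28, and all 4 of its probe sets were higher, from 0.28 to 0.38. Spred2, an inhibitor of the Ras pathway, differed by -0.29, but its 5 probe sets ranged from -0.29 to 0.07.

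The ligase that SOCS boxes recruit read alike on both arrays. All 9 genes measured were within 1.5-fold, with a median of 0.06, where 3.85% of all genes above the floor passed it upward and 3.36% downward. The largest difference was 0.34, for Ube2f, which transfers NEDD8 to a cullin, and Nedd8 itself differed by 0.11. Arih2, a ligase that works with neddylated cullin-5, and Cul5, the cullin that SOCS boxes bind, differed by 0.12 and 0.10. The 4 probe sets of Arih2 ranged from -0.11 to 0.13.

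Other proteins with a SOCS box included a pair with larger differences than any SOCS gene. Past 1.5-fold, 2 of 15 above the floor were higher and 0 lower, with a median of 0.09. The shares of all genes above the floor were 3.85% upward and 3.36% downward. Asb2, an ankyrin repeat protein that directs filamin breakdown, read 506 units with OX40L-Tg APC and 129.7 units with Wt APC, 3.90-fold higher from 1 probe set. Spsb1, a SPRY domain protein that directs the breakdown of inducible nitric oxide synthase, read 199 units with OX40L-Tg APC and 49.8 units with Wt APC, a difference of 2.00. The 4 probe sets of Spsb1 ranged from 0.26 to 2.00. Asb1 and Asb13 differed by 0.30 and -0.27.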

How the data were processed

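RNA from CD4 T cells was measured on 2 Affymetrix HT_MG-430 PM arrays, 1 per condition. The deposited values are intensities that the authors made with RMA, per the submitters' processing notes. Version and normalization set are not given in the sources used here. The values ran from 4.69 to 14686 units and were taken as linear, so log2 was applied. The arrays correlated with r = 0.993 over 45141 probe sets, of which 28898 had 1 gene symbol, 551 several, and 15692 were unlisted and are unnamed here. Entrez numbers matched RefSeq genes of GRCm38.p6 for 28689 of the 28898, which changed 0 symbols.

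Equalising the arrays hides changes in total RNA, and RMA understates differences at low intensity. Nothing measures the spread between samples, and the number of arrays limits precision. Alternatives were the probe set rule, the floor, centring, the pseudocount and the motif window. The family members and the gene lists were chosen with earlier results of these data known. Named genes are the 8 members, up to 4 per list with the largest difference above the floor, and Il2, Il4, Il9, Il21, Ifng, Il2ra, Stat5a and Stat5b. A planned list is not reported here. A named list gene below background on 1 array is given as a bound against that array's background level. Neighbours and genes counted by motif keep their readings. Of 57 organ genes listed, 51 had a value. Calculations used Python 3.11.15, numpy 2.4.6, pandas 2.3.3 and statsmodels 0.14.6, and were tested on simulated data.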

Additional observations from a re-analysis of the deposited data

How the results depend on the processing

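Across the planned settings Socs3 ranged from 0.87 to 0.94, Cish from 0.36 to 0.38, Socs1 from 0.10 to 0.12 and Socs5 from -0.28 to -0.21, and Socs2 and Socs3 were the 2 members past 1.5-fold in each. With the mean over all probe sets of a gene, Socs2 was 0.70, since sets below background enter it. Socs4, Socs6 and Socs7 changed sign under that rule, at -0.069, -0.067 and 0.029. By the same rule 2 JAK and STAT genes, 13 cytokines and 2 STAT5-linked genes were at least 1.5-fold higher. After median or lowess centring, 1 JAK or STAT gene was at least 1.5-fold lower, and 1 receptor chain and 0 other inhibitors at least 1.5-fold higher. With a pseudocount of 16 the cytokine median was 1.64, and the counts became 1 receptor chain and 0 other inhibitors higher and 0 STAT5-linked genes lower. With no floor, the shares of all genes past 1.5-fold were 2.43% upward and 2.11% downward, the cytokine median was 1.72 and that of other SOCS box proteins -0.036. At a 75th percentile floor the cytokine median was 2.97 and the STAT3-linked median 0.73, with 1 STAT3-linked and 0 STAT5-linked genes lower. With genes above background on both arrays, a setting chosen after seeing the data, 9 cytokines were at least 1.5-fold higher with a median of 1.72, STAT3-linked genes were 2 higher and 1 lower, and 0 STAT5-linked genes were lower. Fewer genes enter the stricter floors. Restricting the motif search to bases before the start left 1 family window with TTCNNNGAA, that of Socs3, since both Cish matches lie after the start. No paired analysis was possible because each condition has 1 array.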

Other observations

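The genes that flank the family members on their chromosomes were read as well, 3 protein-coding genes on each side by RefSeq order. Of 48 neighbours, 44 had a value and 32 were above the floor, of which 4 passed 1.5-fold upward and 1 downward, where 3.85% of all genes above the floor passed it upward and 3.36% downward. The median of the 32 was 0.08. Pgs1, a phospholipid synthesis gene next to Socs3, read 639 units with OX40L-Tg APC and 363 units with Wt APC, a difference of 0.82 beside 0.94 for Socs3. Hemk1, a methyltransferase gene next to Cish, read 696 units with OX40L-Tg APC and 366 units with Wt APC, a difference of 0.93 beside 0.38 for Cish. Mapkapk3, the neighbour of Cish on the other side, differed by 0.38. Next to Socs2, Cradd differed by 0.40 and Mrpl42 by -0.14. The other two neighbours past 1.5-fold upward each lay 2 genes away. They were 6430571L13Rik near Cish, at 46.2 units with OX40L-Tg APC and 22.4 units with Wt APC, and Plxnc1 near Socs2, at 58.8 units with OX40L-Tg APC and 34.0 units with Wt APC. Both were below background on the Wt APC array, so the size of their differences rests on readings below that level. The neighbour at least 1.5-fold lower was Lgals3, near Socs4, at -0.82. These neighbours were chosen by position, and those named here were picked after their values were seen.

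Start windows with TTCNNNGAA were set against the arrays across all genes. Of 717 genes above the floor with the motif, 4.88% passed 1.5-fold upward and 5.02% downward. Of 7863 without it, 3.61% were higher and 3.26% lower by that size. Among 43 genes with at least 2 matches, Cish included, 2 were higher and 6 lower by that size. The lower ones were Gbp7, Ccr6, Irf8, Bcl6, Tlr6 and Aldoc. Irf8, an interferon regulatory factor, read 1133 units with OX40L-Tg APC and 2633 units with Wt APC. Bcl6, and Tgm1 among the higher genes, were below background on both arrays. Ccr6 and Tlr6 were below background on the OX40L-Tg APC array. Of 310 genes with the interferon-response-like motif marked in Socs1, 5.81% passed 1.5-fold upward and 9.03% downward, against 3.64% and 3.19% of 8270 without it. Of 550 genes with the STAT6 spacing, 6.55% passed it upward and 3.64% downward, where 3.72% and 3.40% of all 8580 genes with a window did. These shares describe the arrays and were not tested.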
